A study of Saccharomyces cerevisiae with 24 samples.

Results

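The comparison described here is the H3L126M strain against the wild-type (WT) strain of budding yeast in YPEG, an oxidative medium of yeast extract, peptone, ethanol and glycerol on which cells must respire. Its members are the 4 H3L126M and the 4 WT libraries of poly-A RNA grown in YPEG, 8 of the 24 libraries of the series, and every gene that passed the filter on low counts, which was 6022 of 6692 ORFs. H3L126M carries methionine in place of leucine 126 of histone H3 in both chromosomal H3 genes, HHT1 and HHT2. H3L126H, with histidine at the same residue, was grown in YPEG in 4 further libraries, and all 3 strains were also grown in YPD, a fermentative glucose medium. The strains derive from OCY1131, a BY4741 (S288C, MATa) derivative that is his3, leu2, met15 and ura3 and in which HHT2 was put back after its deletion. H3L126M was made with CRISPR-Cas9 and is listed as 1 strain, so the mutation cannot be told apart from any other difference that this strain carries. The libraries came from 4 replicate experiments per strain and medium.

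Leucine 126 lies beside the copper-binding site at the interface of the H3 pair in a nucleosome, where histone H3 has been described as a reductase of cupric to cuprous copper. Cells on ethanol and glycerol make sugars from acetyl-CoA through the glyoxylate cycle and gluconeogenesis, and their growth rests on the copper- and iron-dependent respiratory chain. Yeast takes up copper and iron through plasma membrane reductases and transporters whose genes are controlled by Mac1 for copper and by Aft1 and Aft2 for iron.

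The replaced codon is shown because it defines the strain. In the R64 reference both H3 genes carry a TTG leucine codon at residue 126, counted without the first methionine. The stretches below give the reference, not the edited, sequence on the coding strand, with that codon in capitals. HHT1 is read from the plus strand (chrII:256694-256726) and HHT2 from the minus strand (chrXIV:575655-575687).
HHT1: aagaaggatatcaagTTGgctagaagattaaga
HHT2: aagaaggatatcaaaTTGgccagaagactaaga

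The H3L126M libraries held 10054783 to 13133489 counted reads and the WT libraries 8570789 to 10812303. MET17, URA3 and LEU2, whose deletion the strain background carries, had 0 reads in all 8 libraries, whereas HIS3, partly deleted in this background, had 202 to 300 reads in H3L126M and 214 to 273 in WT. The a-specific genes of a MATa strain were present, with 1281 to 2110 reads of the a-cell receptor gene STE2 in H3L126M and 622 to 813 in WT. Genes specific to alpha cells were not at 0, as SAG1 had 469 to 685 reads in H3L126M and 240 to 418 in WT, and STE3 had 200 to 245 in H3L126M and 130 to 146 in WT. The first principal component separated the H3L126M libraries, at 16.7 to 26.7, from the WT libraries, at -18.0 to -3.87. Within each group the libraries were not uniform. The level of the cytosolic ribosomal protein genes was 0.26, -0.05, 0.29 and 0.31 in H3L126M libraries 1 to 4, against 0.28, 0.29, -0.20 and -0.35 in WT libraries 1 to 4, as the median over genes of log2(scaled count + 1) minus its WT mean. H3L126M library 2 thus lay apart from the others of its group, and WT libraries 3 and 4 lay below WT libraries 1 and 2. For part of the gene groups below, counts are also given with 1 library left out at a time. No fit left out both WT libraries 3 and 4.

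A gene was called where edgeR's quasi-likelihood test gave a Benjamini-Hochberg adjusted p below 0.05 over all 6022 genes. In the comparison, 2178 genes were called, which is 36.2% of those tested: 1031 (17.1%) were higher and 1147 (19.0%) were lower in H3L126M. Most of the calls, 87.9%, were below 2-fold, as 183 genes (3.04%) were called at least 2-fold higher and 80 (1.33%) at least 2-fold lower. Among the genes that rose the median log2 fold change was 0.56, among those that fell it was -0.47, and over all genes it was 0.01. The 4 H3L126M libraries lay wholly above or below the 4 WT libraries for 1715 genes (28.5%). The calls were spread over the genome, with 32.9% to 42.1% of the genes called on each of the 16 nuclear chromosomes. The plot of change against level shows fewer large falls than large rises among the weakly expressed genes, where 62 of the 2-fold rises but 10 of the 2-fold falls had a mean below 100 scaled counts.

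**Figure D1:**
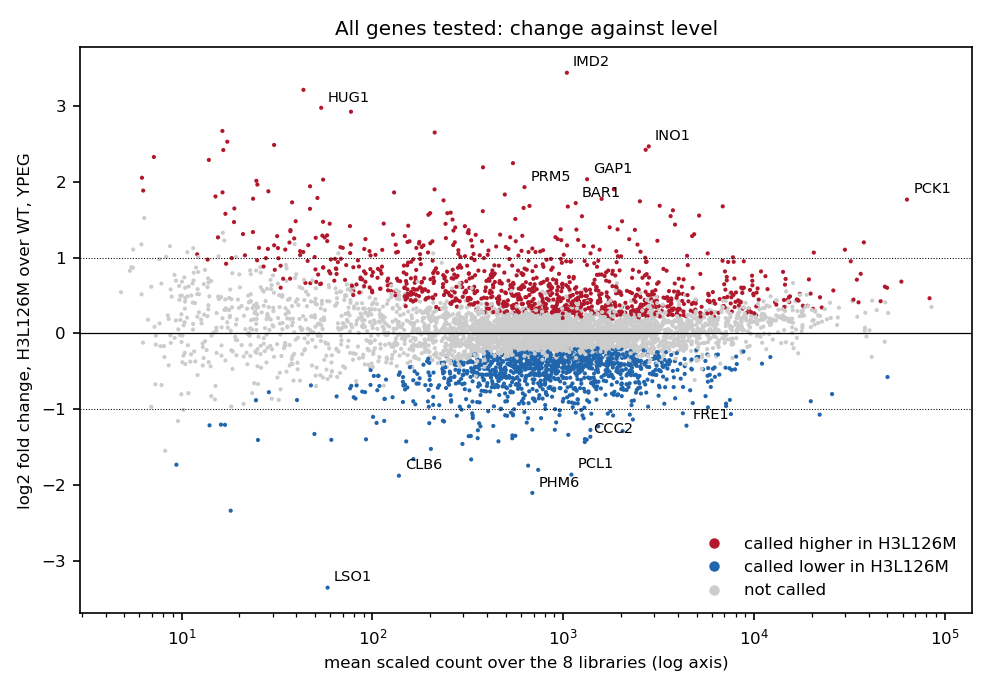
Each point is 1 of the 6022 genes tested. The horizontal axis is the mean scaled count over the 8 libraries (log axis) and the vertical axis the log2 fold change of H3L126M over WT in YPEG, with dotted lines at 2-fold. The 1031 genes called higher are red, the 1147 called lower blue, and the rest grey; IMD2 at 3.43 is the largest rise and LSO1 at -3.35 the largest fall among the genes named.

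Scaled counts are reads divided by the library's TMM-adjusted size and brought to the mean size of the YPEG libraries. The largest rise among genes with at least 100 scaled counts was that of IMD2, an IMP dehydrogenase gene of GTP synthesis, with 2277, 1768, 1819.9 and 1785 scaled counts in H3L126M, against 172, 216, 124 and 199 in WT libraries (log2 fold change 3.43, SE 0.16, adjusted p 9.9e-09). Of its positions, 66.3% are unique in the genome at 50 bases, so some reads may be shared with its relatives. The relatives IMD3 and IMD4 were not called, with log2 fold changes of 0.04 and -0.45. INO1, the inositol-3-phosphate synthase that makes the precursor of phosphatidylinositol, had 4865, 3871, 5094 and 5181 scaled counts in H3L126M, against 894, 899, 744 and 910.2 in WT (log2 2.46, SE 0.12, adjusted p 1.2e-08). In both genes every H3L126M library lay far above every WT library.

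Nitrogen genes stood among the largest rises. GAP1, the general amino acid permease, had 2599.6, 2138, 2193 and 1639.9 scaled counts in H3L126M, against 566, 615, 410.4 and 509 in WT. DUR1,2, the urea amidolyase, had 3378, 3170.2, 2878 and 2196 in H3L126M, against 880.1, 921, 713 and 607 in WT. Their log2 fold changes were 2.03 (SE 0.14) and 1.90 (SE 0.15), and the groups did not overlap in either, which the rank required. PRM5, a target of the cell wall integrity kinase Slt2 through Rlm1, had 1001, 934, 1109 and 924 in H3L126M, against 293, 254, 199 and 300.0 in WT (log2 1.93, SE 0.12). The other 2-fold rises in this rank were AIM17 (log2 1.77, SE 0.22), DPA10 (2.42, SE 0.18), which lies beside the spore wall genes CDA1 and CDA2, and the neighbours YNL194C (2.24, SE 0.24) and YNL195C (2.19, SE 0.22). The next gene of that stretch of chromosome XIV, SLZ1, also rose (log2 1.45, SE 0.24) and was looked at after these values were seen. ORFs of Ty retrotransposons, YML039W, YML045W and YOL103W-B, complete the 12 largest rises and are taken up with their family.

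The largest falls included genes that are transcribed at the start of the cell cycle. PCL1, a G1 cyclin of the Pho85 kinase, had 437, 603, 475 and 392 scaled counts in H3L126M, against 1288, 1644, 2118 and 1875 in WT (log2 -1.86, SE 0.15, adjusted p 1.3e-06). CLB6, an S phase cyclin, had 49.99, 47.4, 60.6 and 77.4 in H3L126M, against 156, 238, 230.1 and 243 in WT (log2 -1.87, SE 0.18). YOX1, a homeobox repressor of cell cycle genes, had 279, 336, 316 and 389.7 in H3L126M, against 766, 865, 1445 and 1518 in WT (log2 -1.80, SE 0.21). HO, the mating-type switching endonuclease gene, had 633, 738, 651 and 785 in H3L126M, against 1439, 1848, 2211 and 2073 in WT (log2 -1.43, SE 0.12). No H3L126M library reached the lowest WT library in any of them, which the choice of these genes required.

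The largest fall at this level of expression was that of PHM6, a gene of the phosphate response, with 232, 303, 264 and 242 scaled counts in H3L126M, against 803, 1069, 1538 and 1059.6 in WT (log2 -2.10, SE 0.24). ISU2, a scaffold for iron-sulfur cluster assembly, had 65.5, 127, 87.7 and 136 in H3L126M, against 223, 266, 342 and 374 in WT (log2 -1.52, SE 0.23). Both were called without overlap, which the rank required. YOR302W, the leader peptide ORF upstream of the arginine gene CPA1 on the same transcript, fell by 1.74 (SE 0.29) on the log2 scale, while CPA1 itself had 5354 scaled counts in H3L126M and 7799 in WT (log2 -0.54, SE 0.16). JJJ3, a J-domain protein gene of diphthamide synthesis, and VTS1, which encodes an RNA-binding protein, fell by 1.66 (SE 0.19) and 1.42 (SE 0.23). The rest of the 12 largest falls were TDA6, YGR079W and YKL068W-A, with log2 fold changes between -1.66 and -1.42.

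**Figure D2:**
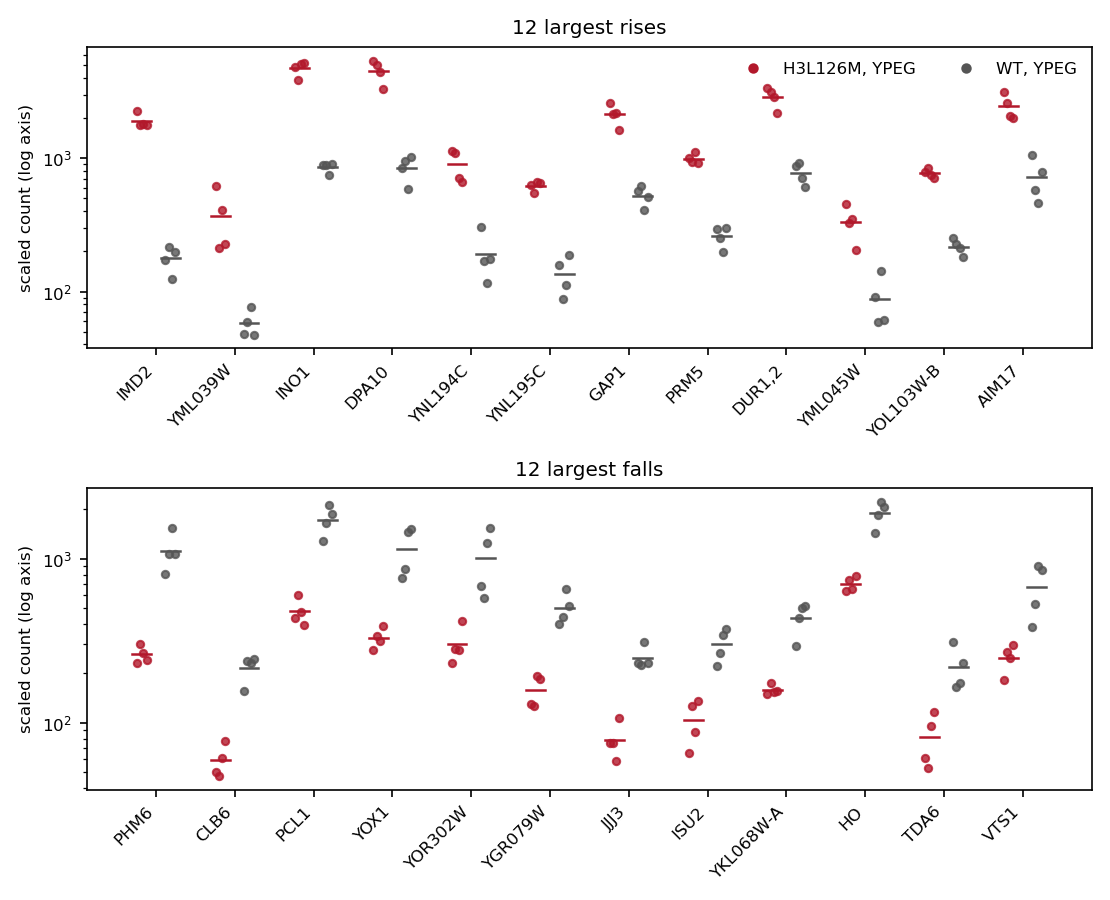
Scaled counts (log axis) of the 12 genes with the largest rises and the 12 with the largest falls, with the 4 H3L126M libraries in red to the left of the 4 WT libraries in grey; points are libraries and lines are means. The genes were chosen for having no overlap, so the groups are apart in all 24, as for IMD2 at 1768 to 2277 in H3L126M and 124 to 216 in WT.

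The genes that make sugar from acetate and ethanol rose as a group. All 13 tested members of the gluconeogenesis and glyoxylate group were called higher, against 17.1% of all genes, 9 of them at least 2-fold, and their median log2 fold change was 1.15. PCK1, phosphoenolpyruvate carboxykinase, was among the most abundant transcripts, with 100688, 97033, 104369.5 and 88762 scaled counts in H3L126M, against 29095, 29323, 26222 and 30473 in WT (log2 1.76, SE 0.13). MDH2, the cytosolic malate dehydrogenase, had 11785, 11978, 10315 and 7659 in H3L126M, against 3206, 4112, 2758 and 3008 in WT (log2 1.67, SE 0.15). ADY2, the acetate transporter, averaged 1609 ± 289 in H3L126M and 505 ± 123 in WT (SD, n = 4 each, log2 1.67, SE 0.20). CIT2, the peroxisomal citrate synthase, averaged 5669 ± 2209.6 in H3L126M and 1844 ± 912 in WT (log2 1.62, SE 0.35), and here H3L126M library 4 at 2755 lay below WT library 1 at 2914. The 13 members were called whichever of the 8 libraries was left out. In the groups that follow, counts of 1 to 3 members often changed by 1 or 2 when a library was left out. Each group count is to be read against the shares over all genes, 17.1% higher and 19.0% lower.

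Of 20 genes of peroxisomal fatty acid beta-oxidation, 13 rose and 0 fell (median log2 0.64), led by POX1, the acyl-CoA oxidase (log2 1.10, SE 0.14), POT1, the thiolase (1.05, SE 0.18), CTA1, the peroxisomal catalase (0.92, SE 0.19), and YAT1, a carnitine acetyltransferase (0.90, SE 0.19). Of 18 glycogen and trehalose genes, 8 rose and 0 fell (median 0.38), among them GLC3, the glycogen branching enzyme, with 5725, 5179, 4491 and 4131 scaled counts in H3L126M, against 2378, 1300.1, 988 and 1425 in WT. Its log2 fold change was 1.68 (SE 0.24), and that of GSY1, a glycogen synthase, was 1.40 (SE 0.24). Of 12 carbon source regulators 4 rose and 2 fell (median 0.09). Those that rose included SIP4 (1.29, SE 0.16), an activator of gluconeogenic genes, and ADR1 (0.54, SE 0.11), the activator of ethanol and peroxisomal genes. MIG3, a relative of the glucose repressor gene MIG1, rose by 0.70 (SE 0.14), whereas MIG1 itself was at -0.73 (SE 0.16).

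Among the glycerol genes 4 of 12 rose and 2 fell: STL1, the glycerol importer, was at log2 0.85 (SE 0.12) and GPD1, which makes glycerol 3-phosphate, at 0.98 (SE 0.23), while the glycerol phosphatase genes GPP2 and GPP1 were at -1.22 (SE 0.15) and -0.75 (SE 0.16). Of 20 hexose transporter and sensor genes 5 rose and 4 fell, with HXT10 at 1.07 (SE 0.17) and MTH1, a repressor of transporter genes, at -0.87 (SE 0.15). HXT6 was at -0.93, but 4.93% of its positions are unique, so its reads cannot be told apart from those of its near-identical copy. Of 13 alcohol and aldehyde dehydrogenase genes 7 rose and 1 fell, with 3 rises without WT library 3 and 4 without H3L126M libraries 1 or 3. Glycolysis genes, of which 4 of 21 rose and 1 fell, depended on the library left out, with 2 rises without WT library 3, 9 without WT library 1 and 8 without H3L126M library 2. The galactose, maltose and invertase genes had 3 rises of 11, with 1 without H3L126M libraries 1 or 3 or WT library 4, pentose phosphate genes 3 of 11, and the retrograde response 1 rise, CIT2, and 1 fall, RTG1 (log2 -0.55, SE 0.20), of 7, a fall that was lost without H3L126M libraries 1, 2 or 3 or WT libraries 3 or 4.

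Nuclear genes of the respiratory chain shifted by less. In YPEG 5 of 7 NADH and succinate dehydrogenase genes rose and 0 fell (median log2 0.47), as did 7 of 9 genes of the bc1 complex (0.34), 6 of 11 genes of cytochrome c and cytochrome c oxidase (0.39), 8 of 17 ATP synthase genes (0.16) and 4 of 13 genes of the TCA cycle (0.23). They included STF2, an ATP synthase stabilizing factor (log2 0.90, SE 0.15), NDE2, an external NADH dehydrogenase (0.78, SE 0.17), COX6 (0.62, SE 0.22), ATP1 (0.62, SE 0.19), SDH2 (0.59, SE 0.14) and CYT1, cytochrome c1 (0.54, SE 0.10). CYT1 averaged 12216 ± 1017 scaled counts in H3L126M and 8417 ± 550.3 in WT and did not overlap, whereas COX6 averaged 5059 ± 1154 in H3L126M and 3301 ± 1205 in WT and overlapped. These counts depended on single libraries. The 6 calls of cytochrome c oxidase became 0 without H3L126M library 4 or WT library 3, 1 without H3L126M libraries 1 or 3 or WT library 4, and 8 without WT library 1; those of the bc1 complex became 4 without H3L126M library 3 or WT library 3; and those of ATP synthase became 3 without H3L126M libraries 1, 3 or 4, and 4 without WT libraries 3 or 4. The TCA cycle had 2 calls without H3L126M libraries 3 or 4 or WT library 3.

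Of 24 cytochrome c oxidase assembly factors 1 rose (4.17%) and 6 fell (25%), against 17.1% and 19.0% of all genes. Their median log2 fold change was -0.06, and the share that fell was near that over all genes. PET117 had a log2 fold change of -1.05 (SE 0.14), COX10, which makes heme A, -0.63 (SE 0.12), COX11, which delivers copper to the enzyme, -0.50 (SE 0.09), and PET309, an activator of COX1 translation, -0.47 (SE 0.13). Of 7 HAP complex and regulator genes 3 fell (1 without H3L126M library 1 or WT library 4), with ROX1 at -0.72 (SE 0.21) and HAP1 at -0.43 (SE 0.09). Genes of coenzyme Q synthesis (1 rise and 1 fall of 11), heme synthesis (1 rise of 9, HEM15 at 0.80, SE 0.09), mitochondrial import (3 rises and 2 falls of 34) and the mitochondrial ribosome (3 rises and 8 falls of 78) had few calls. The 8 falls of the mitochondrial ribosome became 3 without WT libraries 3 or 4, and its 3 rises became 6 without H3L126M library 2. The rises of import genes became 0 without H3L126M library 1 and 6 without H3L126M library 2, and those of coenzyme Q genes 3 without H3L126M library 2 and 0 without H3L126M libraries 1 or 3 or WT libraries 2 or 3. Of 12 ORFs of the mitochondrial genome that were tested, 6 rose and 0 fell, with OLI1, an ATP synthase subunit, at 0.79 (SE 0.21) and COX1 at 0.62 (SE 0.22). These transcripts are poorly captured by poly-A selection and took 0.0394% to 0.0505% of the reads in H3L126M libraries and 0.0218% to 0.0394% in WT libraries.

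Iron uptake genes fell together. Of 12 siderophore uptake genes 10 fell and 1, FRE4, rose (median log2 -0.71), of 12 genes of reductive uptake 8 fell and 0 rose (-0.43), and of 16 genes of iron economy and storage 8 fell and 0 rose (-0.17), against 19.0% of all genes that fell. FRE3, a siderophore reductase, had 729.7, 663, 629 and 843 scaled counts in H3L126M, against 2361, 1913, 2057 and 1195 in WT (log2 -1.39, SE 0.23). CCC2, the copper pump that loads the ferroxidase Fet3, had 713, 684, 639 and 883 in H3L126M, against 1819, 1959.5, 2062 and 1864 in WT (-1.40, SE 0.12). VHT1, the biotin transporter, had 806, 665, 853 and 928 in H3L126M, against 2060.4, 2113, 1933 and 1750.2 in WT (-1.27, SE 0.12). The groups did not overlap in any of these, nor in FET3, the ferroxidase (-0.89, SE 0.17), FTR1, the iron permease (-0.83, SE 0.13), SIT1 (-0.92, SE 0.15), ARN2 (-1.06, SE 0.19) and TIS11 (-0.82, SE 0.19), which degrades transcripts of iron-using enzymes. ARN1 (-0.96, SE 0.23) overlapped.

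LSO1, a small gene induced in iron starvation, was nearly lost, with 5.95, 2.84, 8.66 and 23.0 scaled counts in H3L126M, against 62.1, 81.9, 128 and 154 in WT (log2 -3.35, SE 0.53). The H3L126M libraries held as few as 3 reads of it. Of 6 copper uptake genes 3 fell and 0 rose, the plasma membrane reductases FRE1 (-1.22, SE 0.16) and FRE7 (-0.63, SE 0.21) and the copper transporter CTR1 (-0.55, SE 0.12). Of 11 copper delivery genes 2 fell, CCC2 and COX11, and 1 rose, SOD1 (0.51, SE 0.18), which was not called without H3L126M libraries 1, 3 or 4 or WT libraries 3 or 4. Zinc genes had 3 falls of 12, with COT1 at -0.54 (SE 0.10), and iron-sulfur cluster assembly 5 falls and 2 rises of 24, which became 3 falls without H3L126M library 1. The shares that fell were 18.2% of copper delivery, 25% of zinc and 20.8% of iron-sulfur cluster assembly genes, against 19.0% of all genes. These groups were thus near the share over all genes.

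Promoter sequence is shown here for the element that the iron regulators bind. The iron element that Aft1 and Aft2 bind, TGCACCC on either strand, was in the 500 bases before the start codon of 19 of the 26 iron genes that fell (73.1%), of 4 of the 14 that did not fall (28.6%) and of 2.33% of all 5782 promoters searched. The 3 genes with the largest falls that hold it are given on their coding strand with the match in capitals, from the R64 genome: LSO1 (chrX:448880-448920, minus strand), CCC2 (chrIV:1005416-1005456, plus strand) and FRE3 (chrXV:1055101-1055141, plus strand). The matches begin 145, 242 and 427 bases before the start codon. In CCC2 the element is read on the opposite strand.
LSO1: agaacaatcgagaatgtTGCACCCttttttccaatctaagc
CCC2: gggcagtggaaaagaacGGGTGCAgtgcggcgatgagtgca
FRE3: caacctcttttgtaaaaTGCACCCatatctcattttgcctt

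Genes that build ribosomes fell, while ribosomal protein genes were mostly not called. Of 107 ribosome biogenesis genes 79 fell and 0 rose, 9 of them at least 2-fold (median log2 -0.49), and of 11 genes of RNA polymerase I, which transcribes rRNA, 9 fell and 0 rose (-0.70). UTP6, of the small subunit processome, had 177, 241, 392 and 414 scaled counts in H3L126M, against 532, 719.9, 996 and 863 in WT (log2 -1.34, SE 0.24). UTP18, of the same particle, had 464, 422, 625 and 609 in H3L126M, against 1121, 1291, 1400.0 and 1299.6 in WT (-1.27, SE 0.12). RPA12, a polymerase subunit, averaged 221 ± 67.2 in H3L126M and 505 ± 41.4 in WT (-1.19, SE 0.17), and RRN11, of the core initiation factor, 258 ± 103 in H3L126M and 602 ± 116 in WT (-1.22, SE 0.23). IPI1 (-1.22, SE 0.17), UTP15 (-1.18, SE 0.16), RPA14 (-0.91, SE 0.13) and RRN3, the growth-controlled initiation factor (-0.81, SE 0.13), also fell without overlap. The fall was in the group level of each library, which ran from -0.66 to -0.34 in H3L126M and from -0.20 to 0.21 in WT for ribosome biogenesis. With 1 library left out, between 62 and 87 of the 107 genes fell.

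Of 138 cytosolic ribosomal protein genes 4 rose and 6 fell, which is below the share over all genes, with RPS28B at -0.78 (SE 0.14), RPS9A at -0.71 (SE 0.20), RPP1A at 0.59 (SE 0.21) and RPP0 at 0.50 (SE 0.14). Here the libraries within a group differed by more than the groups: 29 rose without WT library 1 and 1 without WT libraries 3 or 4, or without H3L126M libraries 1, 3 or 4, 10 without H3L126M library 2 and 11 without WT library 2. The falls numbered 3 without H3L126M libraries 1 or 2. Among the promoters of the 88 ribosome biogenesis and polymerase I genes that fell, 44 held the PAC element, GCGATGAG on either strand, as did 14 (46.7%) of the 30 others of these groups and 4.96% of all promoters. The stretches with the match in capitals come from UTP6 (chrIV:1358985-1359026, minus strand), DBP8, an RNA helicase gene (chrVIII:442027-442068, plus strand), and UTP25 (chrIX:193262-193303, minus strand), which hold it 107, 137 and 91 bases before the start codon and whose log2 fold changes were -1.34, -1.08 and -1.02. The share was thus close in members that fell and in the others.
UTP6: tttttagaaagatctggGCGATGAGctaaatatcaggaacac
DBP8: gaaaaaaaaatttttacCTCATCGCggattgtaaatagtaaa
UTP25: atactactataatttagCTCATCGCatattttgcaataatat

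**Figure D3:**
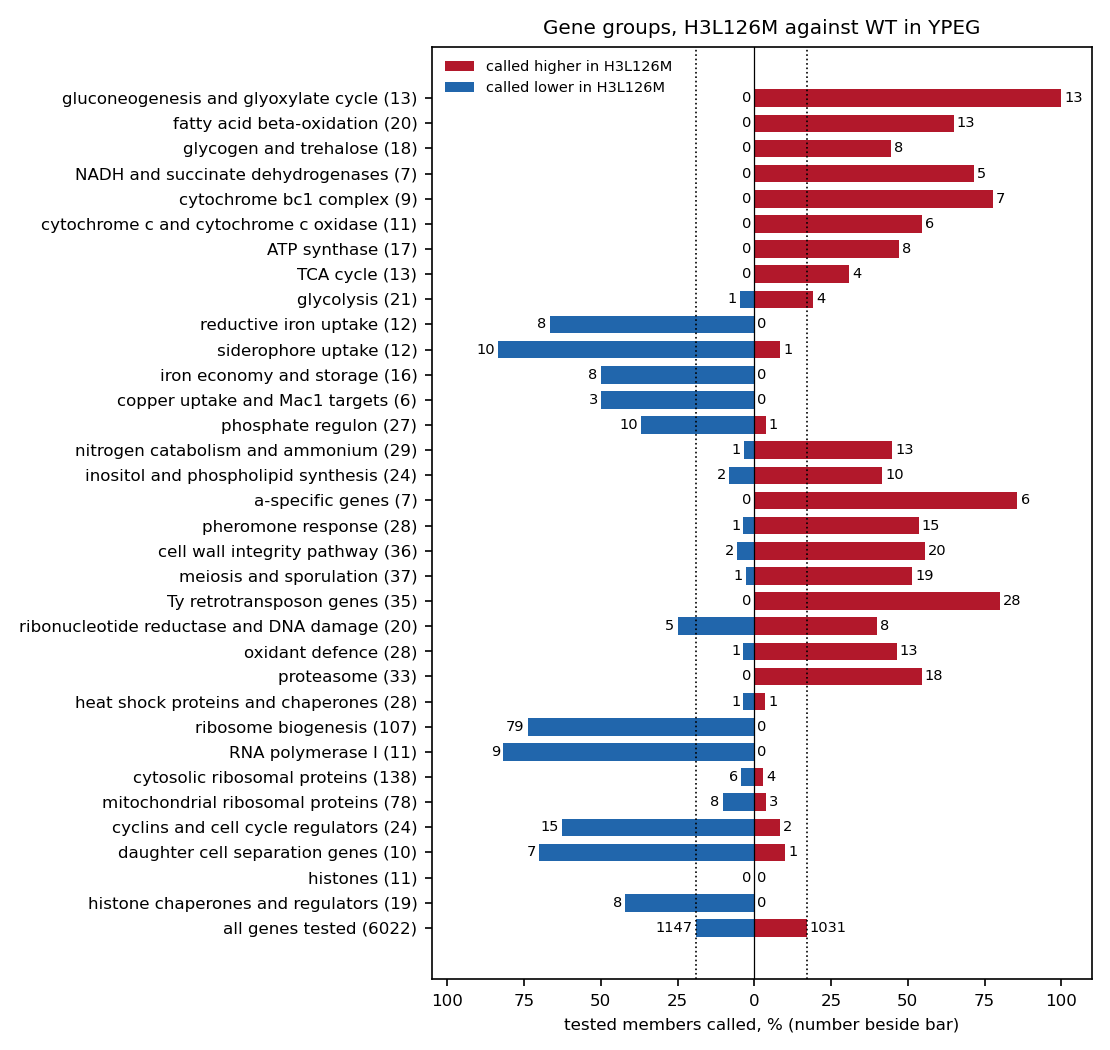
Share of the tested members of each gene group called higher (red, to the right) or lower (blue, to the left) in H3L126M, in percent, with the number of genes beside each bar and the tested members in brackets; dotted lines mark the shares over all 6022 genes. All 13 gluconeogenesis genes rose, 79 of 107 ribosome biogenesis genes fell, and 0 of 11 histone genes was called.

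Cell cycle genes beyond CLB6 and PCL1 were lower too. Of 24 cyclins and cell cycle regulators 15 fell and 2 rose (median log2 -0.36), among them CDC6, the replication licensing factor (-0.77, SE 0.20), and the mitotic cyclin CLB1, with 925, 869, 951 and 957 scaled counts in H3L126M, against 1368, 1696, 1569.6 and 1468 in WT (-0.72, SE 0.08). The genes that separate daughter from mother cells fell in 7 of 10 cases and rose in 1. DSE4, a daughter-specific glucanase, had 917, 1062, 1249 and 1536 in H3L126M, against 2399.8, 2429.6, 3129.5 and 3662 in WT (-1.29, SE 0.16), and SCW11, a wall glucanase, was at -0.78 (SE 0.11). The exception was ASH1, the daughter-cell repressor of HO, at 0.52 (SE 0.14). Cell cycle phase was not measured.

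Genes of the mating pathway rose. Of 28 pheromone response genes 15 rose, 7 at least 2-fold, and 1 fell (median log2 0.42), and of 7 a-specific genes 6 rose and 0 fell (0.97). BAR1, the protease that degrades alpha factor, had 1794, 1654, 1943 and 1741 scaled counts in H3L126M, against 585, 599, 539 and 448 in WT (log2 1.72, SE 0.10). FUS1, which acts in cell fusion, had 388, 396, 393 and 376 in H3L126M, against 134, 171, 113 and 134 in WT (1.4998, SE 0.12), and FUS2 had 299, 333, 303 and 272 in H3L126M, against 105, 67.2, 96.5 and 131 in WT (1.59, SE 0.16). SST2, which shuts off the pheromone signal, was at 1.27 (SE 0.15), the agglutinin gene AGA1 at 1.24 (SE 0.14), the a-factor gene MFA1 at 1.22 (SE 0.16), STE2 at 1.15 (SE 0.11) and AGA2 at 0.97 (SE 0.12). Of the 4 alpha-specific genes tested 3 also rose, SAG1 (0.69, SE 0.11), MF(ALPHA)2 (0.71, SE 0.23) and STE3 (0.46, SE 0.13), so the rise was not limited to the genes of the strain's own mating type.

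The pheromone response element TGAAACA, on either strand, was in 18 of the 21 promoters of mating and a-specific genes that rose (85.7%), in 7 of the 14 others and in 11.9% of all promoters. It is shown in capitals for BAR1 (chrIX:322141-322181), FUS2 (chrXIII:736709-736749) and FUS1 (chrIII:71626-71666), all on the plus strand, where it begins 184, 200 and 160 bases before the start codon. Each of these promoters holds 2 matches, of which the nearer to the gene is printed.
BAR1: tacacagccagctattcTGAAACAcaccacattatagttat
FUS2: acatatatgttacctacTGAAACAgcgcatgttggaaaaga
FUS1: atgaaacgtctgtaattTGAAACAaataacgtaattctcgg

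Of 36 genes of the cell wall integrity pathway 20 rose, 7 of them at least 2-fold, and 2 fell (median log2 0.48). CHS1, the chitin synthase that repairs the wall at division, had 8191, 9185, 5262 and 4217 scaled counts in H3L126M, against 3643, 2534, 2373 and 2491 in WT (1.28, SE 0.23). PIR3, a wall glycoprotein, had 529.7, 341, 338 and 322 in H3L126M, against 189, 132, 116 and 162 in WT (1.35, SE 0.18). NCW2, another wall protein, averaged 5442 ± 3128 in H3L126M and 1865 ± 475 in WT (1.55, SE 0.33), and its H3L126M library 4 at 2494 lay below WT library 1 at 2545. The Rlm1 element was in 40.0% of the promoters of the 20 that rose, in 18.8% of the 16 others and in 9.20% of all. Flocculation and invasive growth genes rose in 7 of 12 cases and fell in 0, with TEC1 at 0.77 (SE 0.15) and STE12, the transcription factor of mating, at 0.61 (SE 0.10). Of 15 seripauperin, DAN and TIR genes tested 4 rose and 0 fell.

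Sporulation genes, which vegetative haploid cells keep low, rose in 19 of 37 cases and fell in 1 (median log2 0.43). CDA1, a chitin deacetylase of the spore wall, had 405, 357, 356 and 363 scaled counts in H3L126M, against 153, 125, 105 and 112 in WT (1.58, SE 0.13). IME2, the meiotic kinase, had 443, 407, 278 and 286 in H3L126M, against 137, 150.4, 116 and 118 in WT (1.44, SE 0.18). CDA2, the second deacetylase gene of the spore wall, had a log2 fold change of 2.48 and SPS100 1.29 (SE 0.27).

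**Figure D4:**
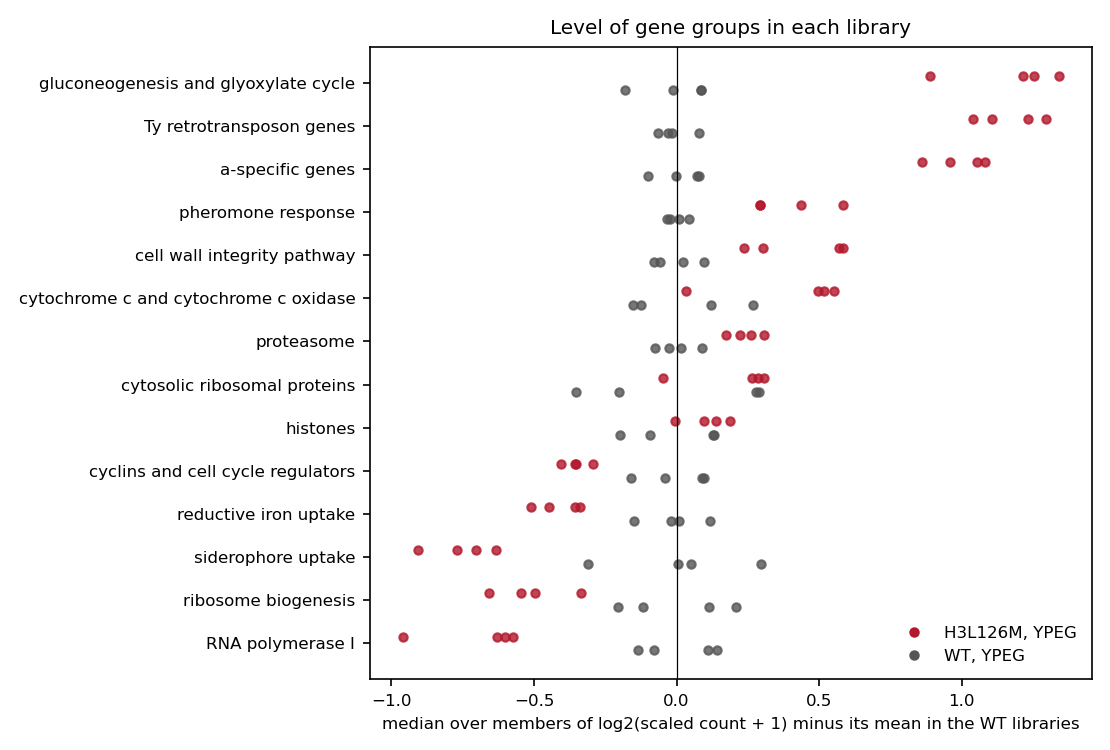
Level of 14 gene groups in each library, as the median over members of log2(scaled count + 1) minus its mean in the 4 WT libraries; H3L126M libraries are red and stand above the WT libraries in grey. For gluconeogenesis the H3L126M libraries lie between 0.89 and 1.34 and the WT libraries between -0.18 and 0.09, whereas for cytosolic ribosomal proteins and cytochrome c oxidase the groups overlap.

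Genes that use poor nitrogen sources rose in 13 of 29 cases and fell in 1 (median log2 0.30). Beside GAP1 and DUR1,2, these were led by DAL3, of allantoin breakdown (1.24, SE 0.23), and DUR3, the urea transporter (1.23, SE 0.23). Of 23 amino acid permease genes 4 rose and 2 fell, with PUT4, the proline permease, at 1.08 (SE 0.15) and TAT2, the tryptophan permease, at -0.47 (SE 0.09); the rises were 2 without H3L126M library 1. Of 55 amino acid synthesis genes 9 rose and 10 fell, with ARG3 at 1.17 (SE 0.32), SER3 at 1.11 (SE 0.23), SER2 at -1.08 (SE 0.14) and HOM3 at -0.99 (SE 0.24). Sulfate and methionine genes (4 rises, 6 falls of 26) were divided as well, with MET8 at -1.10 (SE 0.22) and MET13 at 0.66 (SE 0.11), and had 2 rises without H3L126M library 2. The shares that rose and fell were 16.4% and 18.2% of amino acid synthesis genes, against 17.1% and 19.0% of all genes. They were 17.4% and 8.70% of permease genes and 15.4% and 23.1% of sulfate and methionine genes. Calls in these groups were thus near or below the shares over all genes.

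The phosphate regulon fell in 10 of 27 cases and rose in 1 (median log2 -0.22), 5 of the falls being at least 2-fold. After PHM6 came the acid phosphatase gene PHO11, with 39.3, 67.3, 53.0 and 43.3 scaled counts in H3L126M, against 109, 201, 146 and 81.5 in WT (-1.40, SE 0.31), although 11.7% of its positions are unique and its reads may be shared with its near-identical copy. PHM7, which carries the regulon's name, rose by 1.36 (SE 0.28) on the log2 scale. The Pho4 E-box CACGTG was in 8 of the 10 promoters of the genes that fell, in 47.1% of the 17 others and in 6.23% of all.

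Of 24 inositol and phospholipid genes 10 rose and 2 fell (median log2 0.23). INO1 was followed by CHO1, phosphatidylserine synthase (0.67, SE 0.12), and INO2, the activator of both (0.66, SE 0.22), while INM1, inositol monophosphatase, was at -1.15 (SE 0.18). The Ino2-Ino4 element CATGTG, on either strand, was in 9 of the 10 promoters of the genes that rose (90.0%), in 35.7% of the 14 others and in 13.0% of all. It is in capitals for INO1 (chrX:136089-136128), CHO1 (chrV:208611-208650) and INO2 (chrIV:699590-699629), all on the minus strand and 178, 159 and 144 bases before the start codon.
INO1: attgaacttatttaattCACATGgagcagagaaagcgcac
CHO1: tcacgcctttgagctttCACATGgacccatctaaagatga
INO2: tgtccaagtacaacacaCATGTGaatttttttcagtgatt

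Other lipid and cofactor groups were divided or small. Ergosterol genes had 6 rises and 7 falls of 29, with ERG5 at -0.72 (SE 0.14) and ECM22, a sterol regulator, at 0.62 (SE 0.11); the rises were 3 without H3L126M library 1 or WT library 3, and the falls 4 without WT library 2. Fatty acid synthesis had 1 fall, FAA3 (-0.39, SE 0.10), of 14. NAD synthesis genes rose in 7 of 14 cases and fell in 0, with the nicotinic acid permease TNA1 at 0.78 (SE 0.13) and BNA4 at 0.60 (SE 0.12). Thiamine and vitamin B6 genes had 7 rises and 3 falls of 24, led by SNZ1 (0.88, SE 0.14), with 4 rises without H3L126M library 1. Purine synthesis had 2 rises and 4 falls of 22, which became 7 falls without WT library 4, GTP synthesis and salvage 2 rises and 2 falls of 13, which became 4 falls without WT library 4, and pyrimidine synthesis 1 rise and 5 falls of 12, led by the uracil permease FUR4 (-0.69, SE 0.11).

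Of 20 genes of ribonucleotide reductase and the DNA damage response 8 rose and 5 fell. HUG1, an inhibitor of ribonucleotide reductase induced by the checkpoint, had 92.8, 68.2, 136 and 84.8 scaled counts in H3L126M, against 24.1, 8.06, 5.85 and 11.3 in WT (log2 2.97, SE 0.35). RNR3, the damage-induced large subunit, had 246, 192, 234 and 224 in H3L126M, against 74.7, 100.7, 61.4 and 99.6 in WT (1.42, SE 0.17). RNR4, a small subunit, rose as well (0.82, SE 0.09), whereas RNR1, the main large subunit, whose gene is transcribed at the start of S phase, had 3101, 2866, 3493 and 3749.6 in H3L126M, against 5748, 7668, 6402 and 5149.7 in WT (-0.92, SE 0.14). The groups did not overlap in any of these.

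Stress groups differed among themselves. Of 28 oxidant defence genes 13 rose and 1 fell, with CTT1, the cytosolic catalase, at 664, 411, 575 and 631 scaled counts in H3L126M, against 262, 165, 108 and 215 in WT (log2 1.61, SE 0.21), GPX1 at 1.09 (SE 0.18) and TRX2, a thioredoxin, at 0.73 (SE 0.18). Of 24 general stress genes 10 rose and 0 fell, with XBP1, a repressor made in stress, at 1.54 (SE 0.24) and RTN2 at 0.95 (SE 0.19). Heat shock genes had 1 rise, HSP31 (0.60, SE 0.12), and 1 fall of 28: HSP26, a small heat shock protein, had 748, 425, 979 and 958 in H3L126M, against 2377, 1735, 1679.8 and 2198 in WT (-1.36, SE 0.31). Proteasome genes rose in 18 of 33 cases by small amounts (median 0.24), led by their activator RPN4 (0.73, SE 0.19), and 33 of 33 had a positive log2 fold change. That count was 8 without H3L126M library 3, 9 without WT library 3 and 7 in a fit of the 8 libraries alone.

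Among the remaining groups, autophagy had 8 rises and 2 falls of 32, with 2 rises without H3L126M library 1 or WT library 3, 4 without WT library 2 and 5 without H3L126M library 4, and the aryl-alcohol dehydrogenases 5 rises and 0 falls of 7, with AAD6 at 0.82 (SE 0.11). Drug efflux genes had 4 rises and 7 falls of 26, among them PDR5, the main multidrug pump, with an average of 5267 ± 235 scaled counts in H3L126M and 9671 ± 1311 in WT (-0.88, SE 0.11). The vacuolar ATPase had 1 rise and 2 falls of 17, with 5 rises without H3L126M library 2 or WT library 1.

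None of the 11 histone genes was called by edgeR, and 0 had an unadjusted p below 0.05, with changes between -0.16 and 0.38 on the log2 scale. HHT1 had 12718, 7908, 11377 and 10737 scaled counts in H3L126M, against 12961, 11499, 7253 and 6756 in WT (0.15, SE 0.20), and HHT2 had 20664, 15841, 18501 and 18580.3 in H3L126M, against 18655, 17319, 17451 and 16354 in WT (0.08, SE 0.11). Both edited genes were thus transcribed, and the spread within a group exceeded the difference between groups. Of the 11 histone genes 8 were called lower in YPD, among them HHT1 (log2 -0.35, SE 0.06) and HHT2 (-0.29, SE 0.08). Histone chaperones and regulators fell in 8 of 19 cases and rose in 0, with SPT21 (-0.78, SE 0.14), ASF1 (-0.74, SE 0.14) and MSI1 (-0.60, SE 0.11), and silencing genes in 5 of 15 cases with 1 rise, with SAS2 at -0.57 (SE 0.14) and HST4 at -0.51 (SE 0.15).

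Retrotransposon ORFs rose in 28 of 35 tested cases, 22 of them at least 2-fold, and fell in 0 (median log2 1.12). YOL103W-B had 787, 845, 744 and 709 scaled counts in H3L126M, against 251, 226, 212 and 181 in WT (1.83, SE 0.11), and YGR038C-B averaged 3882 ± 595 in H3L126M and 1163 ± 265 in WT (1.74, SE 0.17). YML039W and YML045W, whose names lack the letter suffix by which these ORFs were selected, are not among the 35. YML039W had 618, 212, 410.3 and 226 in H3L126M, against 48.1, 59.1, 76.0 and 47.5 in WT (2.65, SE 0.38), and YML045W averaged 335 ± 103 in H3L126M and 88.4 ± 38.8 in WT (1.90, SE 0.31). These elements are near-identical copies, with 0.96% of YML039W unique, so the rise belongs to the family and cannot be placed on single copies. Of 329 genes within 30 kb of a chromosome end 97 rose, 30 at least 2-fold, and 38 fell (median 0.20). COS12, one of these, had 151, 101.4, 134 and 158 in H3L126M, against 24.1, 21.5, 13.6 and 13.6 in WT (2.92, SE 0.25). Of these 329 genes 29.5% rose and 11.6% fell, against 17.1% and 19.0% of all genes. The rises numbered 74 without WT library 3 and 111 without WT library 1, and the falls 25 without H3L126M library 1 or WT library 3.

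Whether these changes were particular to the oxidative medium was tested as the difference between the H3L126M change in YPEG and that in YPD, over all 24 libraries, and 1504 of 6082 genes (24.7%) were called. Among the 6022 genes tested in YPEG, 674 had a change that was higher in YPEG than in YPD and 829 one that was lower. H3L126M against WT in YPD gave 871 calls of 5976 genes (14.6%). Of the 5942 genes also tested in YPEG, 465 were called higher and 403 lower in YPD. Of the 107 ribosome biogenesis genes 43 had a change that was lower in YPEG than in YPD and 0 the other way, as did 9 of 11 RNA polymerase I genes, 9 of 12 siderophore genes with 1 the other way, 13 of 24 cyclins and regulators with 2 the other way, and 8 of 10 daughter separation genes. For CCC2 the difference was -1.80 (adjusted p 2.5e-07), for PCL1 -2.15 (0.00056) and for DSE4 -1.54 (5.3e-05). Higher in YPEG than in YPD was the change of 12 of 36 cell wall integrity genes, 15 of 33 proteasome genes and 6 of 13 gluconeogenesis genes, with 0 the other way. MDH2 differed by 2.09 (3.8e-07), and PRM5, at -0.07 (SE 0.21) in YPD, by 2.00 (1.9e-05).

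Other rises were not called as different between the media or were divided. The genes named here were chosen by their YPEG values. Of 35 retrotransposon ORFs the change was higher in YPEG for 10 and lower for 6, and 28 were called higher in YPD. Among the mating genes, FUS2 differed by 0.11 (adjusted p 0.72) and FUS1 by 0.46 (0.057), and 4 of 28 pheromone genes were lower and 5 higher in YPEG. For 5 of the 7 a-specific genes, in contrast, the change was higher in YPEG and for 0 lower, with BAR1 at 0.93 (adjusted p 0.0063). DPA10 differed by 0.22 (SE 1.09, adjusted p 0.90), but its rise in YPD was itself not called (2.19, SE 0.72). RNR3 differed by 0.30 (adjusted p 0.29). Of 55 amino acid synthesis genes, with 9 rises and 10 falls in YPEG, 43 fell in YPD, and the change was higher in YPEG for 32. BNA2, a gene of NAD synthesis, rose in YPEG by 0.44 (SE 0.10) but its change minus that in YPD was -2.61 on the log2 scale (adjusted p 7.6e-10).

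**Figure D5:**
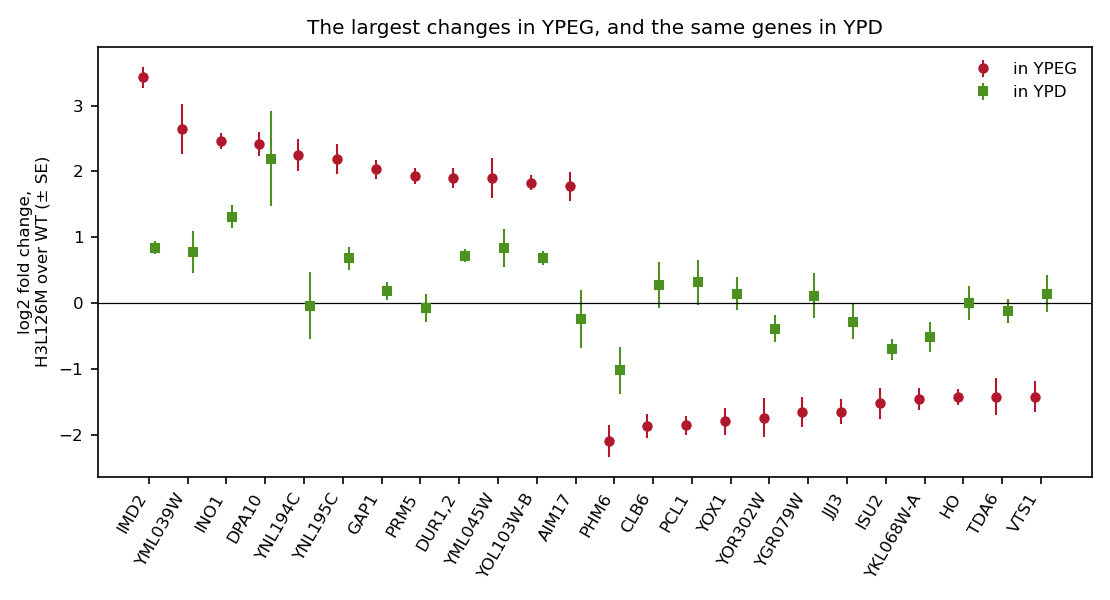
Log2 fold change of H3L126M over WT in YPEG (red circles) and in YPD (green squares) for the 12 largest rises and 12 largest falls in YPEG, with bars of 1 SE. Most points in YPD lie closer to 0, as for PCL1 at -1.86 in YPEG and 0.31 in YPD. DPA10 is at 2.42 in YPEG and 2.19 in YPD, where it was not called (SE 0.72). The genes were chosen by their YPEG values.

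The direct comparison of H3L126M with H3L126H in YPEG compared the substitutions with each other, and 2447 of 6022 genes (40.6%) were called. The genes named here were chosen by their change against WT in the same H3L126M libraries, which favours a difference. On the log2 scale H3L126M exceeded H3L126H by 2.36 for PCK1 (SE 0.13, adjusted p 4.5e-08), by 2.20 for MDH2 (SE 0.15), by 2.39 for INO1 (SE 0.12) and by 1.77 for BAR1 (SE 0.10). IMD2 was also higher, by 1.63 (SE 0.14), with 1912 ± 244 scaled counts in H3L126M, 617 ± 85.1 in H3L126H and 178 ± 40.3 in WT, and so was DPA10, by 1.49 (SE 0.18), with 4556 ± 918 in H3L126M, 1626 ± 269 in H3L126H and 853 ± 191 in WT (SD, n = 4 each). H3L126H thus lay between H3L126M and WT for these genes, whereas PCK1 averaged 97713 in H3L126M, 19078 in H3L126H and 28778 in WT, with H3L126H the lowest. The difference was -2.34 for PCL1 (SE 0.15), -4.06 for LSO1 (SE 0.51) and -3.61 for HSP26 (SE 0.33). CIT2 (0.15, SE 0.34, adjusted p 0.76) and TRX2 (0.03, SE 0.18, adjusted p 0.91) were not called. PIR3, which rose against WT, was at -2.18 (SE 0.16) against H3L126H.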

How the data were processed

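Poly-A RNA of whole yeast cells, collected after 2 to 3 doublings, was sequenced from 4 replicate experiments per strain and medium. The authors aligned the reads and counted them per ORF, and the deposited values analysed here are those raw counts, with no normalization; the submitters' processing notes name HISAT2, featureCounts, DESeq2 and sacCer3, with versions not given in the sources used here. The table normalized by the authors with DESeq2 was not used.

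Genes were filtered with filterByExpr (minimum count 10) over the 12 YPEG libraries of the 3 strains, scaled by TMM and tested with edgeR's quasi-likelihood test (edgeR 4.0.16, limma 3.58.1, R 4.3.3), with Benjamini-Hochberg adjustment over all genes and a threshold of 0.05. The SE is the absolute log2 fold change over the square root of F. The difference between media used all 24 libraries. DESeq2 1.42.0 was an alternative. Tables and figures were made in Python 3.11.15 (matplotlib 3.10.9 for drawing, pandas 2.3.3, numpy 2.4.6). The code was tested on simulated data. p-values measure the spread between these samples, which may be partly technical, and totals of 8570789 to 13133489 reads set the counting precision of the 8 libraries compared.

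The genes and the 68 gene lists were chosen with earlier results of these data known. The text names the 12 largest rises and 12 largest falls among genes called at 2-fold or more with a mean of at least 100 scaled counts and no overlap, up to 4 called members of each list with a mean of at least 50, histone and strain marker genes, and IMD2, INO1, PRM5, PCK1 and BAR1. Other genes, such as LSO1, CPA1, SLZ1, CDA2, FRE4, COX1, OLI1, BNA2, DBP8 and UTP25, were added after their values were seen. ORF names and genome sequence come from the RefSeq record of R64. Promoters were the 500 bases before the start codon, in place of the promoter windows first planned. Further elements were searched. The CCAAT box was in 80.0% of promoters of respiratory chain and TCA genes that rose, in 100% of the others and in 62.7% of all. The Gcn4 element was in 52.6% of called amino acid synthesis genes, in 55.6% of the others and in 4.10% of all. For the Mac1, Zap1, Bas1, Pdr1 and stress response elements the share was higher in called members than in the others. The counts were 2 of 3 against 0 of 3 for Mac1 and 2 of 3 against 5 of 9 for Zap1. For Bas1 they were 5 of 6 against 10 of 16 and for Pdr1 3 of 11 against 2 of 15. The stress response element was in 17 of 18 against 18 of 24. Of all promoters 8.70%, 1.09%, 12.8%, 3.06% and 34.3% held these elements, in the order named. Unique positions are those whose 50-base window occurs once in the genome.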

Additional observations from a re-analysis of the deposited data

Results flagged for a closer look

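Single libraries stood apart in 4 of 74 groups of 4 libraries examined, where chance alone gives about 1 in 20. IMD2 was at 2277 scaled counts in H3L126M replicate 1 and at 1768 to 1819.9 in the other H3L126M libraries. In WT, INO1 was at 744 in replicate 3 and at 894 to 910.2 in the others, CLB6 at 156 in replicate 1 and at 230.1 to 243 in the others, and JJJ3 at 309 in replicate 3 and at 226 to 232 in the others.

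The H3L126M change differed between YPEG and YPD by the interaction test of edgeR (adjusted p below 0.05) for 27 of 37 genes examined, 21 of them among the 24 largest changes in YPEG, which were chosen by their YPEG values. For rises, the change in YPEG minus that in YPD was 2.60 for IMD2, 1.88 for YML039W, 1.16 for INO1, 2.28 for YNL194C, 1.52 for YNL195C, 1.86 for GAP1, 2.00 for PRM5, 1.19 for DUR1,2, 1.16 for YOL103W-B, 2.01 for AIM17 and 0.93 for BAR1. For falls, it was -2.13 for CLB6, -2.15 for PCL1, -1.92 for YOX1, -1.34 for YOR302W, -1.76 for YGR079W, -1.35 for JJJ3, -0.80 for ISU2, -0.93 for YKL068W-A, -1.41 for HO, -1.30 for TDA6 and -1.55 for VTS1. Among histone genes, none of which was called in YPEG, it was 0.38 for HHT2, 0.48 for HHF2, 0.98 for HTA2, 0.53 for HTB1 and 0.41 for HTZ1. These differences go with falls in YPD, where 8 of 11 histone genes were called lower (median log2 -0.35).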

How the results depend on the processing

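The count of 2178 calls was 2392 with DESeq2, 2170 with DESeq2's size factors in edgeR, 2170 without the filter, 1692 from the 8 libraries alone and 2392 from all 24 libraries. It ran from 1599 without WT replicate 3 to 2457 without WT replicate 1. With the replicate block it was 2203. Of the 1031 rises and 1147 falls, 778 and 908 were also called from the 8 libraries alone. Same-numbered libraries did not deviate together (r from -0.20 to 0.29, against -0.28 to 0.32 for other numbers), so the numbers were not taken to pair the samples. Over 3654 values of the 261 named genes under the alternatives, 219 lost the call. Sign changed in 0 values of genes called in the main or the alternative fit. Sign changes of genes called in neither fit were not counted. The 24 largest changes kept their call in all 336, which their choice as called genes without overlap favoured. Of 1904 list counts 218 moved by more than 1.5 times. Reads of near-identical genes, and of LSO1 with as few as 3 reads in a library, limit precision.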
